A study of Mus musculus with 2 samples.

Results

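The genes described here are the core of the machinery that destroys beta-catenin, together with the Dishevelled genes that switch that machinery off. They are 10 genes, chosen by their role: the scaffolds Apc and Axin1, the glycogen synthase kinase 3 genes Gsk3a and Gsk3b, the casein kinase 1 genes Csnk1a1, Csnk1d and Csnk1e, and the Dishevelled genes Dvl1, Dvl2 and Dvl3. They were measured among 19871 genes in bone marrow derived macrophages, with 1 array of control macrophages and 1 array of macrophages labelled as lacking beta-catenin (a knockout, by the source label), both from mice of 8 weeks. Marrow cells were grown into macrophages with medium conditioned by L929 fibroblasts, and total RNA was hybridised to a whole-transcript Affymetrix array. Which mouse line was used, what drove the deletion, which exons it removed and how many animals gave each culture is not stated in the sources used here. Because each group was a single array, no value has a replicate error and no test was possible, so higher and lower describe these 2 arrays only.

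In a cell that receives no Wnt signal, Axin and Apc hold beta-catenin in place while casein kinase 1 alpha adds a priming phosphate and glycogen synthase kinase 3 adds the next ones. The ubiquitin ligase subunit beta-TrCP then recognises the phosphorylated protein and it is degraded. When Wnt binds its receptors, Dishevelled polymerises at the membrane and draws Axin away, so beta-catenin accumulates and enters the nucleus. The kinases have many other substrates; in macrophages glycogen synthase kinase 3 is also known for its part in tuning inflammatory cytokine output.

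None of the 10 genes differed by as much as 1.5-fold between the arrays. Values are log2 RMA values, a background-corrected and normalized summary of a gene's probes, so a difference of 1 is 2-fold. All 10 genes passed a brightness limit of 7.28, the median of the whole table. Counting 1.5-fold differences gave 0 of 10 genes higher and 0 of 10 lower in the array labelled deficient. Over all 10658 genes that passed the limit, 7.54% were higher by that size and 8.81% lower. At 2-fold the counts were again 0 and 0, against 2.96% of all genes higher and 1.59% lower. The largest difference was that of Dvl2, which was 0.46 lower, while 9 of the 10 genes differed by less than 0.2 and 7 by less than 0.1. The median of the 10 differences was 0.02, and that of all genes above the limit was -0.08.

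**Figure D1:**
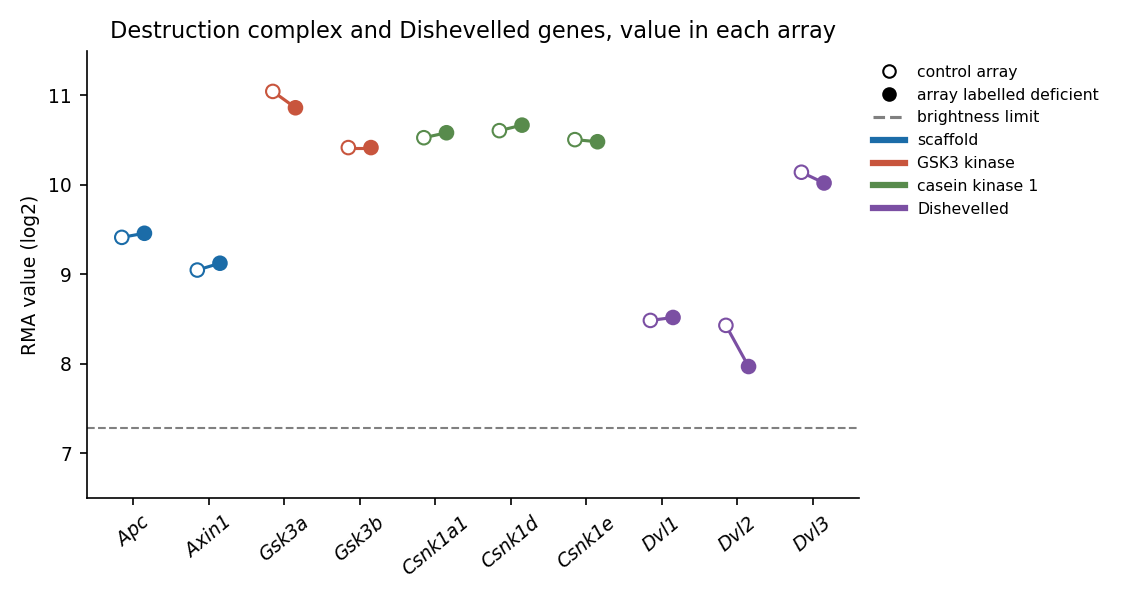
RMA value (log2 scale) of each of the 10 genes in the control array (open circle) and in the array labelled deficient (filled circle), joined by a line and coloured by role; the dashed line is the brightness limit of 7.28. Dvl2 has the steepest line, from 8.43 to 7.97, and the line of Gsk3b is flat at 10.42; heights of different genes are not comparable, because each gene has its own probes.

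The label was checked first on beta-catenin itself. Ctnnb1, its gene, had a level of 11.29 in control and 11.44 in the array labelled deficient, so the transcript signal was not lower there. Probes outside the deleted exons need not register a deletion, and the removed exons are unstated. Why the signal was not lower was not tested. The array is therefore named below by its label, on which every direction rests. Axin2, the feedback scaffold that beta-catenin switches on, had a value of 7.61 against 5.97, a difference of -1.64. The lower value is under the brightness limit, where the size of a difference is uncertain. The macrophage markers Csf1r, a receptor gene (12.25 and 12.35), Adgre1, which encodes F4/80 (12.23 in both), and Cd68 (12.71 and 12.82) were bright. They were close to level between the arrays. Marker lists of other cell types were not level between the arrays, and which cells gave these signals was not tested. Over all genes above the limit 7.54% were at least 1.5-fold higher and 8.81% lower. Without the limit these shares were 4.98% and 13%. Fibroblast and stromal markers had 21 of 27 members at least 1.5-fold above control and 0 below it, with a median difference of 0.88. For neutrophil granule genes the counts were 14 and 0 of 21, with a median difference of 1.17. Over all 29 measured stromal markers, 2 of them below the limit, levels ran from 4.20 to 12.50 in control. They ran from 5.50 to 12.98 on the other array. Macrophage identity genes had 1 of 21 higher by that size, 1 lower and a median of 0.10. Their differences ran from -0.71 to 0.78, and 3 more genes were below the limit. Shorter lists gave counts that moved with the limit or the scaling. Of mast cell and basophil markers 3 of 5 were higher and 0 lower, but 3 and 1 of 12 without the limit. Dendritic cell markers had 4 higher and 3 lower of 9, with 2 lower under the other scalings and 4 and 5 of 15 without the limit. Erythroid and megakaryocyte markers had 3 and 3 of 7, with 1 lower under other scalings and 3 and 4 of 11 without the limit. Endothelial markers had 1 and 1 of 7, with 0 lower under the other scalings and 2 higher after subtraction of a loess curve. T and NK cell markers had 1 and 1 of 4, with 2 higher under the other scalings. Without the limit they had 1 higher and 7 lower of 12. B cell markers had 0 and 0 of 5, with 1 higher under the other scalings and 2 of 10 higher without the limit. All 10 genes of interest are expressed in many cell types, and in a bulk sample fewer cells of a type and less RNA per cell cannot be told apart. The part of these markers in the values below was not tested.

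The scaffolds were nearly level. Apc (transcript cluster 10454655), the large adenomatous polyposis coli protein that binds beta-catenin through repeated motifs, had a level of 9.41 in control and 9.46 in the array labelled deficient, a difference of 0.05. Axin1 (transcript cluster 10442954), which brings the kinases and beta-catenin together and is often held to limit how much complex can form, had a level of 9.05 and 9.13. Its difference of 0.08 was the largest positive one among the 10 genes, and it corresponds to a 5.43% higher signal. Its paralog Axin2 had a value under the brightness limit in the array labelled deficient, so the size of that difference is uncertain and is not set against that of Axin1. The difference of Apc was within that of most genes of its brightness. Among 2691 other genes with a mean level within 0.5 of that of Apc the quartiles of the difference were -0.32 and 0.17, and for Axin1 (2904 genes) they were -0.33 and 0.17.

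The glycogen synthase kinase 3 genes encode closely related kinases from separate loci. Gsk3a (transcript cluster 10560993), the alpha form, had a level of 11.05 in control and 10.86 in the array labelled deficient, a difference of -0.18 and a change in signal of -11.9%. Gsk3b (transcript cluster 10435676), the beta form, had a level of 10.42 in both arrays. The deposited values of Gsk3b were the same to the last decimal place written for the array labelled deficient, whose column has fewer digits than the control column. Gsk3a lay below the median of -0.04 of 1127 genes of its own brightness and within their quartiles of -0.28 and 0.23. Gsk3b lay above the median of -0.08 of the 1616 genes of its brightness.

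The casein kinase 1 genes varied least among themselves after the scaffolds. Csnk1a1 (transcript cluster 10456120), which encodes the alpha kinase that primes beta-catenin, had a level of 10.53 in control and 10.58 in the array labelled deficient, a difference of 0.06. Csnk1d (transcript cluster 10394040), the delta kinase, which also sets the pace of the circadian clock by phosphorylating period proteins, had a level of 10.61 and 10.67. Csnk1e (transcript cluster 10430519), the epsilon kinase, a clock kinase as well and one that phosphorylates Dishevelled, had a level of 10.51 and 10.48. The 3 differences spanned 0.09, from -0.02 for Csnk1e to 0.06 for Csnk1d. Csnk1e is the gene whose sign is not settled: its difference was -0.02 as deposited and between -0.00 and 0.05 under other scalings, with 2 of 3 of them positive.

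The Dishevelled genes differed most among themselves. Dvl1 (transcript cluster 10511190) had a level of 8.49 in control and 8.52 in the array labelled deficient, a difference of 0.03. Dvl2 (transcript cluster 10377704) had a level of 8.43 and 7.97, a difference of -0.46 and a 1.38-fold lower signal. Dvl3 (transcript cluster 10434366) had a level of 10.14 and 10.02, a difference of -0.12. The 3 proteins share the same domain plan and act in both canonical and planar polarity signalling, and their separate probes showed a difference for Dvl2 that was 0.49 below that of Dvl1 and 0.34 below that of Dvl3. With 1 array per group there is no spread against which these gaps can be set.

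Dvl2 was the gene that left the middle range of genes of its brightness. Of 2908 other genes within 0.5 of its mean level, 14.6% had a lower difference, and the quartiles were -0.31 and 0.16. Over all 10658 genes above the limit, 14.5% had a difference at or below that of Dvl2, so a shift of this size was common in this comparison. At a smaller size, 0.32 on the log2 scale, Dvl2 was 1 of 10 genes counted as lower and 0 were counted as higher, against 24.9% of all genes lower and 16.2% higher. The other 9 genes lay inside the quartiles of genes of their own brightness.

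**Figure D2:**
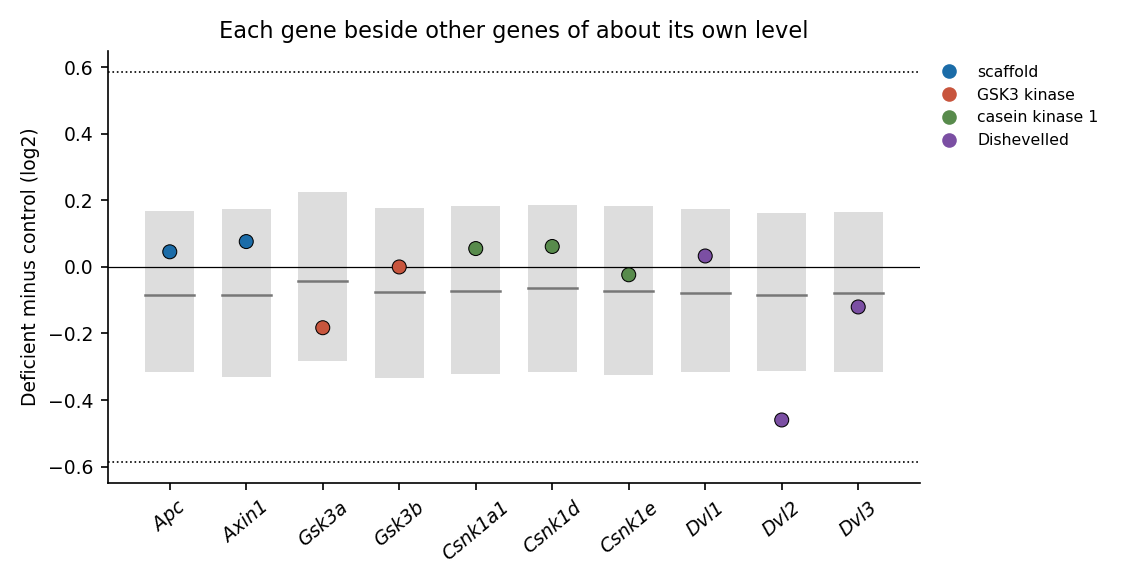
Difference of each gene (array labelled deficient minus control, log2; coloured circles) beside the quartile range (grey box) and median (grey line) of other genes above the limit whose mean level lies within 0.5; dotted lines mark 1.5-fold. Dvl2 at -0.46 lies below its grey box, and the other 9 genes lie inside theirs.

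Most of the 10 differences were small beside those of other genes. The median size of the difference without its sign was 0.06 over the 10 genes and 0.26 over all genes above the limit, and 9 of the 10 lay under the latter value. A difference under 0.1 was found for 7 of 10 genes and for 21.1% of all genes above the limit. These figures hold for the values as deposited. After centring each column on its median, Apc, Axin1, Csnk1a1, Csnk1d and Dvl1 passed 0.1 (0.11 to 0.15), and Dvl3 came under it (-0.05). The share of all genes was not recounted there. Against genes of their own brightness, 7 of 10 lay above the local median, which was negative at each of the 10 levels. These counts describe the arrays and were not tested.

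**Figure D3:**
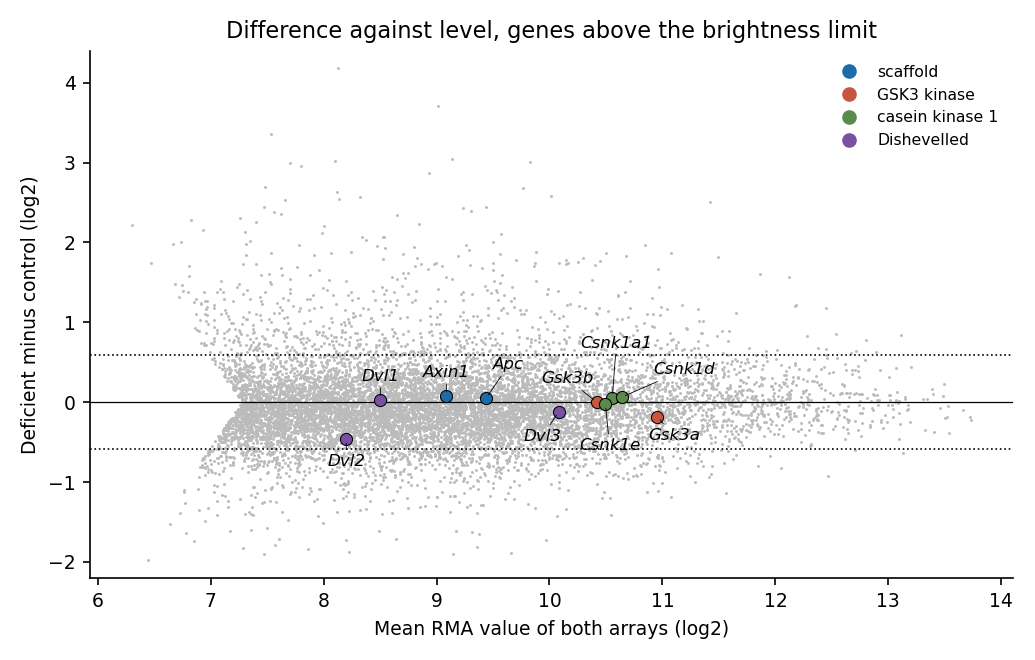
Difference (array labelled deficient minus control, log2) against the mean RMA value of both arrays (log2) for all 10658 genes above the limit (grey points), with the 10 genes coloured by role; dotted lines mark 1.5-fold. The 10 genes lie in the dense band around 0, with Dvl2 at -0.46 the farthest from it.

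Rescaling the columns shifted all 10 genes upward by a little and brought none to 1.5-fold. Centring each column on its median, quantile normalization and subtraction of a loess curve on level moved single genes among the 10 by up to 0.09, and the median over all genes above the limit by up to 0.08. Over all 19871 genes, dim ones included, the median moved by up to 0.16. The same scalings turned the balance of 1.5-fold differences over all genes, from 7.54% higher and 8.81% lower as deposited to 9.36% and 6.59% after centring. Dvl2 remained the lowest of the 10 genes, between -0.40 and -0.37. Gsk3a lay between -0.15 and -0.11, Dvl3 between -0.06 and -0.04, and Axin1 between 0.14 and 0.16. Gsk3b, level as deposited, lay between 0.03 and 0.07.

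**Figure D4:**
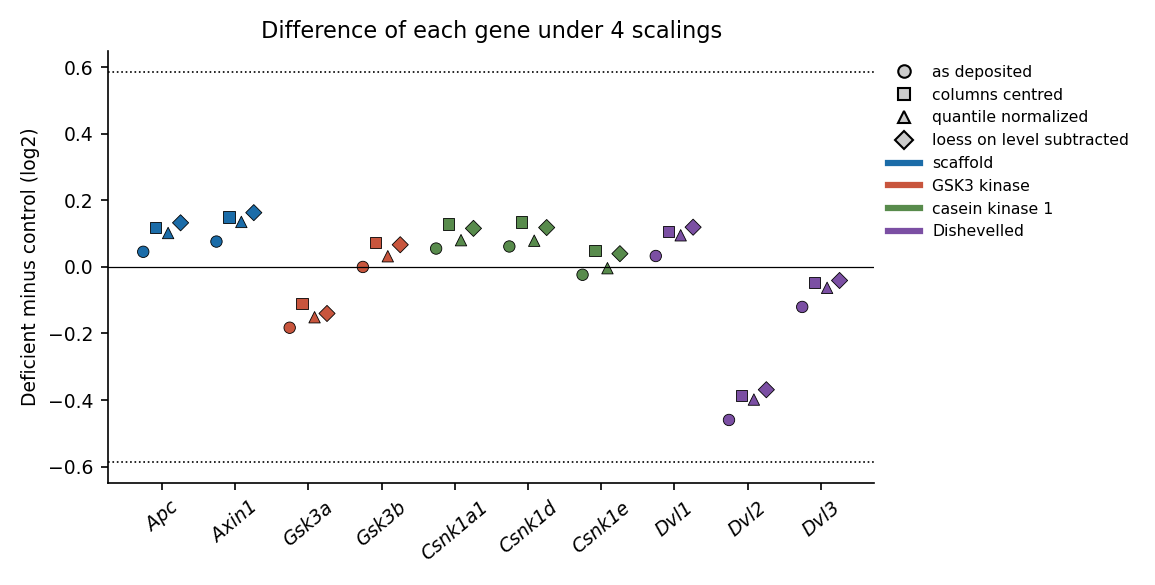
Difference of each of the 10 genes (array labelled deficient minus control, log2) as deposited and under 3 other scalings, 1 marker shape for each scaling; dotted lines mark 1.5-fold. Dvl2 stays between -0.46 and -0.37, and Csnk1e is the gene whose markers lie on both sides of 0.

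Promoter sequences are shown for the Dishevelled genes, because Dvl2 had the largest difference of the 10. Those of the glycogen synthase kinase pair are shown because, as deposited, Gsk3b was level and Gsk3a had a difference of -0.18. That of Gsk3a lay within the quartiles of genes of its brightness. RefSeq (build GRCm38.p6) gave promoters for 6 of the 10 genes: Dvl1, Dvl2, Dvl3, Gsk3a, Gsk3b and Csnk1e. Each line is the 250 bases before the annotated start, 5′ to 3′ on the gene's strand. Dvl1 lies at chr4:155847152-155847401 (plus strand), Dvl2 at chr11:70000342-70000591 (plus), Dvl3 at chr16:20516736-20516985 (plus), Gsk3a at chr7:25237852-25238101 (minus) and Gsk3b at chr16:38088751-38089000 (plus). Capitals mark 4 motifs on either strand: the GC box GGGCGG, the E-box CACGTG, the TCF/LEF core CTTTGA and the CCAAT box.
Dvl1: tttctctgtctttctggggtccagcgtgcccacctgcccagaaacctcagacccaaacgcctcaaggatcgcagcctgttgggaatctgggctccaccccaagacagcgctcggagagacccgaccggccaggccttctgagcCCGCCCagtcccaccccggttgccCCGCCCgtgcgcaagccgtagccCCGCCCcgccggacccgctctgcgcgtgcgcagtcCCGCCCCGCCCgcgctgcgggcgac
Dvl2: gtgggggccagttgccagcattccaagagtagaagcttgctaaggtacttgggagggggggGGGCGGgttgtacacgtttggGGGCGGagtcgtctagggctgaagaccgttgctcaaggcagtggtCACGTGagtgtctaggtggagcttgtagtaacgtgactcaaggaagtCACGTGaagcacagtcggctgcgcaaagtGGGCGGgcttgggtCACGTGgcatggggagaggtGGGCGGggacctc
Dvl3: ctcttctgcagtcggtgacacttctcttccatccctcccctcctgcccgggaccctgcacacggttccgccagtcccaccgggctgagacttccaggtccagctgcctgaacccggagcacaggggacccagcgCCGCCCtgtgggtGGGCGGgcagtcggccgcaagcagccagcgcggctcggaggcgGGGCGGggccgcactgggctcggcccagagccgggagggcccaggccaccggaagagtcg
Gsk3a: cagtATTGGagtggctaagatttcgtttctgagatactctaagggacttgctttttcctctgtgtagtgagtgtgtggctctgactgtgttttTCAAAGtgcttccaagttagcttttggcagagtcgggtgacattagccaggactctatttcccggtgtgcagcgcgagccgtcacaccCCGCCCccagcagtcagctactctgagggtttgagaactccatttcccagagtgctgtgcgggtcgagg
Gsk3b: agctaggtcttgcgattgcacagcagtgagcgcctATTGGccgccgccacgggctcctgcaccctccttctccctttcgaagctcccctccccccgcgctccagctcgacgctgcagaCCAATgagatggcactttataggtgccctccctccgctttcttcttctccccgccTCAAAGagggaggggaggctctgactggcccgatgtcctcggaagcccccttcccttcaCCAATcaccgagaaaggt

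The 3 Dishevelled promoters shared GC boxes and differed in E-boxes. Dvl1 held 5 matches to GGGCGG, the last 2 overlapping by a base, Dvl2 held 4 and Dvl3 held 3, and 32.7% of 32851 promoter windows of the same length held at least 1. The E-box CACGTG, a palindrome bound by many basic helix-loop-helix factors, occurred 3 times in the Dvl2 window, at 123, 76 and 33 bases before the start. The windows of Dvl1 and Dvl3 had 0 matches to it. Of all windows 6.02% held at least 1 E-box and 0.0609% held 3 or more (20 windows). The cut at 3 is the count of Dvl2 itself, for 1 of 7 motifs searched, so this share is not a test. The TCF/LEF core, bound by the factors that beta-catenin activates, was in 13.8% of all windows and in those of Gsk3a (157 bases before the start) and Gsk3b (77 bases before the start), and it had 0 matches in the Dishevelled and Csnk1e windows. A match is a description of letters and not evidence of binding.

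The windows also differed in composition. G and C made up 71.2% of the bases before Dvl1, 60.8% before Dvl2 and 72.8% before Dvl3, against a median of 52.4% over all windows. Gsk3a (52.0%) was close to that median and Gsk3b (62.0%) above it. CCAAT boxes, present in 33.8% of all windows, occurred 3 times in the Gsk3b window and 1 time in that of Gsk3a. Csnk1e has 4 annotated starts, whose windows held 2 to 6 GC boxes and 61.2% to 80.8% G and C. Another 3 motifs were searched on both strands. The ETS core CCGGAA, in 12.0% of all windows, matched 1 time in Dvl3, and the TATA box TATAAA, in 12.4%, matched 1 time in Gsk3b. The cyclic AMP response element TGACGTCA, in 1.55%, had 0 matches in the 9 windows of these genes.

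Partner genes of the destruction complex covered a wider range of differences than the core genes did, on a longer list that includes Ctnnb1 itself. Of 26 partner genes of the destruction complex 21 passed the brightness limit. By 1.5-fold 0 of these 21 were higher and 3 were lower, beside 7.54% higher and 8.81% lower over all genes above the limit. Their median was -0.02, which turned positive, between 0.05 and 0.08, under the other scalings. The lowest was Axin2, followed by Csnk1g3, a membrane-bound casein kinase 1 that phosphorylates the Wnt co-receptor, with a level of 9.05 in control and 8.37 in the array labelled deficient (-0.68). The highest were Tnks2, a tankyrase that marks Axin for destruction (9.76 and 9.97), and Skp1, an adaptor of the ubiquitin ligase (9.96 and 10.14). The third lower gene was the ubiquitin ligase Siah1a (-0.62, to a value under the limit, named after it was seen), which fell inside 1.5-fold under the other scalings. Both beta-TrCP genes, chosen after their values were seen, stood next to these. Btrc had a level of 9.97 and 9.47, and Fbxw11 a level of 10.28 and 9.77, differences of -0.49 and -0.51.

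Phosphatases counter the kinases of the complex. All 16 measured subunit genes of protein phosphatases 2A and 1 passed the brightness limit. By 1.5-fold 0 of 16 were higher and 2 lower, where 7.54% and 8.81% of all genes were, and the median was 0.02 against -0.08 over all genes. Ppp2r3a, a regulatory subunit, had a level of 7.73 in control and 6.93, under the limit, in the array labelled deficient (-0.80). Ppp2r1b, the beta form of the structural subunit, had a level of 10.09 and 9.43 (-0.66), and lay between -0.59 and -0.57 under the other scalings, on both sides of 1.5-fold. The highest were the catalytic genes Ppp2cb (10.65 and 11.08, a difference of 0.44) and Ppp1cb (11.06 and 11.32, a difference of 0.26). Their sister genes, chosen after their values were seen, were nearer level, at -0.10 for the structural Ppp2r1a and 0.05 for the catalytic Ppp2ca.

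Dishevelled also has a further group of partners and regulators, only some of which hold it in check. Of 28 measured, 22 passed the brightness limit, 1 of them higher by 1.5-fold and 0 lower. Over all genes above the limit 83.6% lay within 1.5-fold, with 7.54% higher and 8.81% lower. Their median of -0.13 stayed negative under the other scalings, between -0.08 and -0.04. Nkd2, a Naked cuticle protein that binds Dishevelled and dampens Wnt signalling, had a level below the limit in control and of 7.80 in the array labelled deficient, a difference of 0.81. Dab2, an endocytic adaptor that stabilises Axin, had a level of 12.07 and 12.62, a difference of 0.54 that passed 1.5-fold after centring (2 genes higher in place of 1). The lowest were Tmem88, a membrane protein that binds Dishevelled (-0.52), and Ccdc88c, which encodes the Dishevelled-binding protein Daple (-0.51), both under the limit in the array labelled deficient. The stromal markers (median difference 0.88) and neutrophil granule genes (median difference 1.17) moved the same way as Nkd2 and Dab2. The part of either list in these values was not tested.

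**Figure D5:**
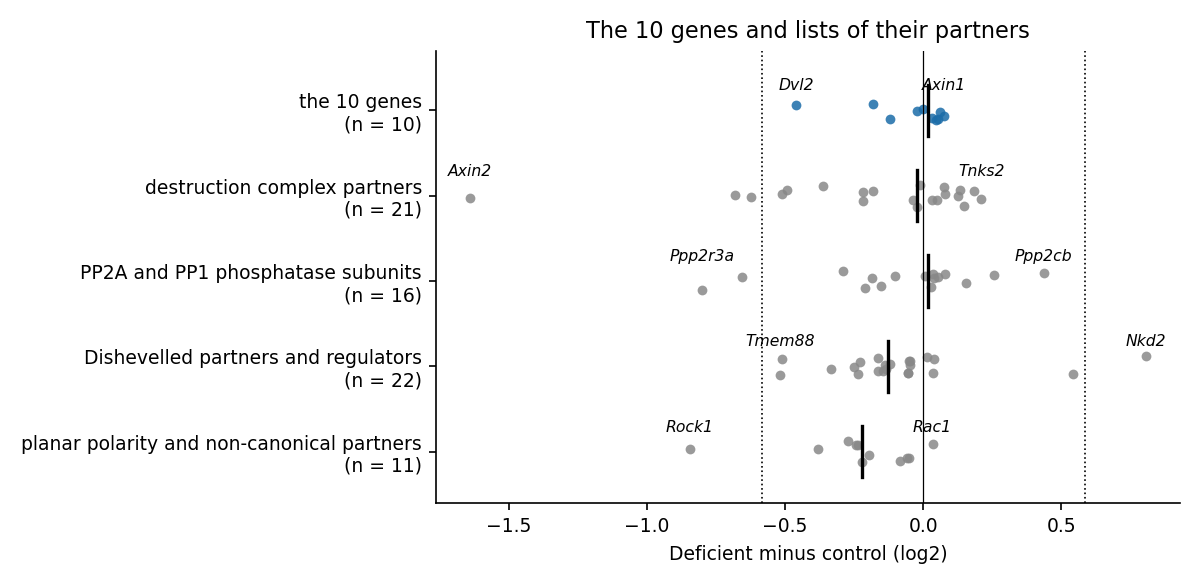
Difference (array labelled deficient minus control, log2) of the 10 genes (blue) and of 4 lists of partner genes above the limit (grey); vertical bars are medians, dotted lines mark 1.5-fold, and the lowest and highest gene of each row is named. The 10 genes span -0.46 to 0.08, and the destruction complex partners reach -1.64 with Axin2, whose value in the array labelled deficient is under the limit.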

How the data were processed

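Each column of the deposited table is taken as 1 array; the labels do not say whether it is a mean. Per the submitters' processing notes the authors made the log2 values with RMA; its version, its settings or whether both columns came from 1 run is not stated in the sources used here; log2 was taken from the range (2.12 to 14.11). Gene symbols came from the platform annotation at GEO (21632 of 25917 rows with 1 symbol, 1560 with several, 2725 with none). The row with the highest mean was kept per gene; each of the 10 genes had 1 row and none shared with another gene. The difference is deficient minus control. With 1 array per group no test, standard error or p-value was computed, and the number of arrays limits the precision. Counts used 1.5-fold and a brightness limit at the table's median, which the higher value had to reach. Named partners are the 2 highest and 2 lowest of each list; others are marked. The members and lists were chosen with earlier results of these data known. Alternatives were other limits, sizes, scalings and row choices. Promoters came from RefSeq. The code was tested on simulated data. Python 3.11.15, numpy 2.4.6, pandas 2.3.3, statsmodels 0.14.6 and matplotlib 3.10.9 were used.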

Additional observations from a re-analysis of the deposited data

How the results depend on the processing

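The counts of the 10 genes past 1.5-fold stayed at 0 higher and 0 lower after centring, loess or quantile normalization. The other settings could not have raised these counts, because all 10 genes pass the limit and each has 1 row. These were no brightness limit, a limit at percentile 75 or on the mean, both other choices of row, and 2-fold. At 0.32 on the log2 scale the count of lower genes was 1, which is Dvl2, and that of higher genes 0. The median of the 10 differences was 0.02 as deposited, 0.02 with the limit at percentile 75, which kept 8 genes, and 0.06 to 0.09 under the other scalings. A move under 0.37, the robust SD of the differences over all genes above the limit, was counted as no change, since no replicate spread exists. The scalings moved single genes among the 10 by at most 0.09, so this wide margin marked none of them as changed. It does not register a change of sign such as that of Csnk1e. No paired analysis was possible because each group has 1 array. Leaving out an array was not possible for the same reason. Arrays without a detection call limit what a level near the limit shows, but each of the 10 genes was above the limit in both arrays.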

Other observations

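Partners of the planar polarity and other non-canonical branches, in which Dishevelled also acts, were measured for 20 genes, of which 11 passed the brightness limit. A negative difference was found for 10 of the 11 and for 58.9% of all genes above the limit. By 1.5-fold 1 of 11 was lower and 0 higher, against 8.81% and 7.54% of all genes, and the median of -0.22 stayed negative under the other scalings, between -0.15 and -0.12. The lowest was Rock1, a kinase that drives actomyosin contraction, with a level of 10.06 in control and 9.21 in the array labelled deficient (-0.85). Mapk9, which encodes the stress kinase JNK2, followed with 9.50 and 9.12. The highest were the small GTPase gene Rac1 (0.03) and the polarity scaffold Scrib (-0.05), which turned positive under the other scalings, between 0.01 and 0.04, as did Prickle3, also between 0.01 and 0.04. Nlk lay between -0.04 and 0.00 there. The remaining 9 measured genes, among them 3 Celsr genes and Vangl1, were below the limit in both arrays.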
